A study of Mus musculus with 4 samples.

Results

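The genes described here are *Fmod* and *Prelp*, which encode the small leucine-rich proteoglycans (SLRPs) fibromodulin and PRELP, and 7 relatives of the same family that fibroblasts express, namely *Dcn*, *Bgn*, *Lum*, *Ogn*, *Omd*, *Aspn* and *Podn*. They are 9 of the 24532 genes listed for each library, and they were found by their NCBI gene identifiers. *Fmod* and *Prelp* were chosen by their lower transcript levels in these same 4 libraries, and the relatives were chosen to be set beside them. Their values in the comparison of genotypes are therefore given as a description, with no test. RNA sequencing was performed on granule-cell-enriched (GCE) tissue micro-dissected from the cerebellar vermis, which the sample labels call cerebellum, from 2 wild-type (WT) mice and 2 heterozygous *Kdm3b* knockout (Kdm3b+/-) mice. *Kdm3b* encodes a demethylase of lysine 9 on histone H3. All animals were adult males, and the WT mice were littermates of the Kdm3b+/- mice. The knockout allele carries the gene trap vector pGT0lxf in an intron of *Kdm3b*, in every cell of the body, and comes from a single ES cell line, YTC406, whose mutation was backcrossed to C57Bl/6N and then crossed to C57Bl/6J. The mice were given no treatment that the labels name.

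SLRPs are secreted proteins with a short core built of leucine-rich repeats, most of which carry chains of chondroitin, dermatan or keratan sulfate. They bind fibrillar collagens, set the width and spacing of the fibrils, and hold growth factors of the TGF-β and BMP families in the matrix. In the brain, fibroblasts of the meninges and of the larger vessels are the best known source of decorin, lumican and their relatives, whereas neurons express little of them. The family is divided into classes by sequence. Decorin, biglycan and asporin form the first class, fibromodulin, lumican, PRELP and osteomodulin the second, osteoglycin belongs to the third, and podocan to a non-canonical class.

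*Fmod* and *Prelp* are neighbours on chromosome 1. In the deposited tables *Prelp* lies on the reverse strand at chr1:133910304-133921401 and *Fmod* on the forward strand at chr1:134037515-134048277, so that they are transcribed away from each other, with their starts 116.114 kb apart and 0 listed genes between them. The coordinates match GRCm38. *Fmod* has 3 exons, a transcript of 3120 bases and a coding sequence of 1128 bases in GENCODE. *Prelp* has the same number of exons, 3, in a transcript of 3615 bases with 1134 coding bases. The sequences upstream of their start sites are shown because, of the 9, these are the pair whose levels were lowest relative to WT, and that of *Bgn*, at chrX:73483351-73483580 on the forward strand, is shown as that of a relative whose groups overlapped. Each run covers 230 bases, 5′ to 3′ on the strand of the gene, from 250 to 21 bases upstream of the RefSeq start in GRCm38.p6, and capitals mark CpG dinucleotides. The *Fmod* run is chr1:134037004-134037233 on the forward strand, and the *Prelp* run is chr1:133921422-133921651 on the reverse strand.
Fmod: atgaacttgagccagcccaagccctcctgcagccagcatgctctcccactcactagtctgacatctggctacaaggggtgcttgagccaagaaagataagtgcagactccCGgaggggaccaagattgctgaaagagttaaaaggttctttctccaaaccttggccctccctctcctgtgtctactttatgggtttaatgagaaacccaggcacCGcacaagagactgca
Prelp: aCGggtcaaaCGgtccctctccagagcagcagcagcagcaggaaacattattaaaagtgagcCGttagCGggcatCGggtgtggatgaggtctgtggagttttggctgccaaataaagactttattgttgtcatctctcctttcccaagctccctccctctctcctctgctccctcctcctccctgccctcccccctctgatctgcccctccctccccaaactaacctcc
Bgn: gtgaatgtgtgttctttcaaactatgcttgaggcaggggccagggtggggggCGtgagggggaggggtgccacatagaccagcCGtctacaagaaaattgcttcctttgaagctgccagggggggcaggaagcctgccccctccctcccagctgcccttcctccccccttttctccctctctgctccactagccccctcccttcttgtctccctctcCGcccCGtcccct

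These runs hold 2 CpG dinucleotides for *Fmod*, 5 for *Prelp* and 4 for *Bgn*. In the whole 300-base promoter entries, which reach 50 bases past the start, *Fmod* had 3 CpG and a GC content of 51.0%, *Prelp* 7 CpG and 55.3%, and *Bgn* 9 CpG and 63.7%. The median of the 27025 mouse promoters of this length was 7 CpG and 52.7% GC, so *Fmod* had fewer CpG than the median and *Prelp* was at it. Promoter entries were matched for 7 of the 9 genes, all but *Dcn* and *Lum*. Of the other entries, *Podn* had 41 CpG, *Ogn* 4, *Aspn* 3 and *Omd* 1. On either strand, CCAAT was found in *Fmod*, *Prelp* and *Aspn* and in 37.9% of all promoters. TATAAA was found in *Ogn* and *Aspn* and in 14.2% of all promoters, and GGGCGG in *Bgn* and *Podn* and in 35.9%. TGANTCA was found in 0 of the 7 and in 7.93% of all promoters, and CANNTG in 6 of the 7 (all but *Omd*) and in 72.1%. These are matches of letters in these windows only.

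Levels are given as TPM, in which transcript abundance is scaled to the length of each gene and the total of each library and can be compared between genes. The libraries held between 4.919 and 6.691 gigabases of aligned sequence, and between 17572 and 17991 genes had a TPM above 0. *Kdm3b* itself was at 9.10 and 11.0 TPM in WT mice and at 8.30 and 7.90 TPM in Kdm3b+/- mice. Its log2 fold change was -0.27 (SE 0.17), which did not pass the test of limma across all genes (adjusted p = 0.424), although the groups did not overlap. This level is that of the whole gene, exons upstream and downstream of the vector together. Differentially expressed (DEX) genes had to differ by more than 1.2-fold and to reach an adjusted p below 0.05. The test covered the 13652 genes whose TPM averaged 1 or more, and the log2 fold changes are differences of log2(TPM + 1), which understate the changes of low genes. Of the tested genes 63 were DEX, or 0.461%, with 16 higher (0.117%) and 47 lower (0.344%) in Kdm3b+/- mice. The groups did not overlap for 51.3% of tested genes, with 32.0% lower and 19.2% higher, and 17.0% had an unadjusted p under 0.05. A lower mean in Kdm3b+/- mice was found for 60.4% of tested genes, and the median log2 fold change was -0.07. With 2 mice a group, an exact two-sided permutation test of a single gene cannot give a p below 0.333.

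*Fmod*, whose product binds collagen fibrils and carries keratan sulfate, was at 13.7 and 15.7 TPM in WT mice and at 2.53 and 2.76 TPM in Kdm3b+/- mice. Both Kdm3b+/- mice were far below both WT mice, and the mice of each genotype lay close together. The mean was 14.7 ± 1.35 TPM (SD, n = 2) in WT and 2.64 ± 0.163 TPM (SD, n = 2) in Kdm3b+/- mice, which is 5.56-fold lower, or 18.0% of the WT level. The log2 fold change was -2.10 (SE 0.17), which ranked 8 among the decreases of the 13652 tested genes. The coverage, or average number of reads over each exonic base, was 30.5 and 38.7 in WT and 6.69 and 8.44 in Kdm3b+/- mice. Each value therefore rested on several reads at each base, also in the libraries with the lower level.

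*Prelp*, whose product has a basic stretch at its amino end that binds heparan sulfate and links basement membranes to collagen, was the SLRP with the highest level in WT mice. It was at 40.4 and 44.0 TPM in WT mice and at 15.3 and 14.2 TPM in Kdm3b+/- mice. The groups did not overlap, and the gap between them was wider than the range within either. The mean was 42.2 ± 2.55 TPM (SD, n = 2) in WT and 14.8 ± 0.747 TPM (SD, n = 2) in Kdm3b+/- mice, which is 2.85-fold lower, or 35.0% of the WT level. The log2 fold change was -1.45 (SE 0.15), with a rank of 23 among the decreases. The coverage was 89.5 and 109 in WT and 40.5 and 43.6 in Kdm3b+/- mice, so this gene was read more deeply than *Fmod* in every library. In bulk tissue, fewer cells that express these genes and less RNA per cell cannot be told apart.

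*Dcn*, which encodes decorin, a binding partner of collagen and TGF-β, was the relative with the highest level. It was at 36.1 and 28.6 TPM in WT mice and at 23.4 and 22.2 TPM in Kdm3b+/- mice. Both Kdm3b+/- mice were below both WT mice, but WT mouse 2 was nearer to them than to the level of WT mouse 1. The mean was 32.3 ± 5.31 TPM (SD, n = 2) in WT and 22.8 ± 0.878 TPM (SD, n = 2) in Kdm3b+/- mice, with a log2 fold change of -0.48 (SE 0.16). *Dcn* had a rank of 1032 among the decreases of the 13652 tested genes and was not a DEX gene.

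*Bgn*, which encodes biglycan, the closest relative of decorin, was at 6.26 and 6.34 TPM in WT mice and at 6.07 and 7.27 TPM in Kdm3b+/- mice. The Kdm3b+/- mice lay on either side of the WT mice. The log2 fold change was 0.07 (SE 0.17), from a mean of 6.30 ± 0.0613 TPM (SD, n = 2) in WT to 6.67 ± 0.849 TPM (SD, n = 2) in Kdm3b+/- mice. *Aspn*, which encodes asporin, a member of the same class that carries a run of aspartate residues, had overlapping groups as well. It was at 1.72 and 2.01 TPM in WT mice and at 1.92 and 1.67 TPM in Kdm3b+/- mice, with a log2 fold change of -0.04 (SE 0.19) that became 0.01 with median-ratio scaling.

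*Lum*, which encodes lumican, the keratan sulfate proteoglycan that keeps the cornea clear, was higher in Kdm3b+/- mice. It was at 1.29 and 0.984 TPM in WT mice and at 3.40 and 2.86 TPM in Kdm3b+/- mice. Both Kdm3b+/- mice were above both WT mice. The mean was 1.14 ± 0.220 TPM (SD, n = 2) in WT and 3.13 ± 0.386 TPM (SD, n = 2) in Kdm3b+/- mice, which is 2.75-fold higher, and the log2 fold change was 0.95 (SE 0.20), with a rank of 43 among the increases. *Lum* was not a DEX gene. Its coverage was 2.87 and 2.43 in WT and 9.01 and 8.74 in Kdm3b+/- mice, so its values rested on fewer reads than those of *Prelp*. The coverage was low in WT mice, whereas in Kdm3b+/- mice it was above that of *Fmod* (6.69 and 8.44). *Dcn* and *Lum* are neighbours on the forward strand of chromosome 10, 47.338 kb apart, at chr10:97479500-97518163 and chr10:97565501-97572703.

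The other 3 relatives had a mean TPM below 1 and were not tested. *Ogn*, which encodes osteoglycin, also known as mimecan, was at 0.735 and 1.28 TPM in WT mice and at 0.565 and 1.10 TPM in Kdm3b+/- mice, and the groups overlapped. *Omd*, which encodes osteomodulin, a keratan sulfate proteoglycan of mineralised tissue, was at 0.547 and 0.482 TPM in WT mice and at 0.281 and 0.283 TPM in Kdm3b+/- mice. For *Omd* the groups did not overlap, at levels where few reads decide the value. *Podn*, which encodes podocan, was listed at 0 in WT mouse 1 and was at 0.0238 TPM in WT mouse 2 and at 0.0705 and 0.0297 TPM in Kdm3b+/- mice. The groups did not overlap, with the Kdm3b+/- mice higher, but podocan transcripts were barely detected in either genotype. *Aspn*, *Omd* and *Ogn* lie in a row on the forward strand of chromosome 13, inside the gene *Cenpp*, which is read from the other strand. *Cenpp*, which encodes a centromere protein, was at 5.01, 2.55, 4.45 and 3.77 TPM in the order WT 1, WT 2, Kdm3b+/- 1 and Kdm3b+/- 2. Whether the libraries kept the strand of the RNA is not given in the sources used here, so reads of *Cenpp* cannot be told apart from those of these genes. No listed gene overlapped *Fmod*, *Prelp*, *Dcn*, *Bgn*, *Lum* or *Podn*.

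**Figure D1:**
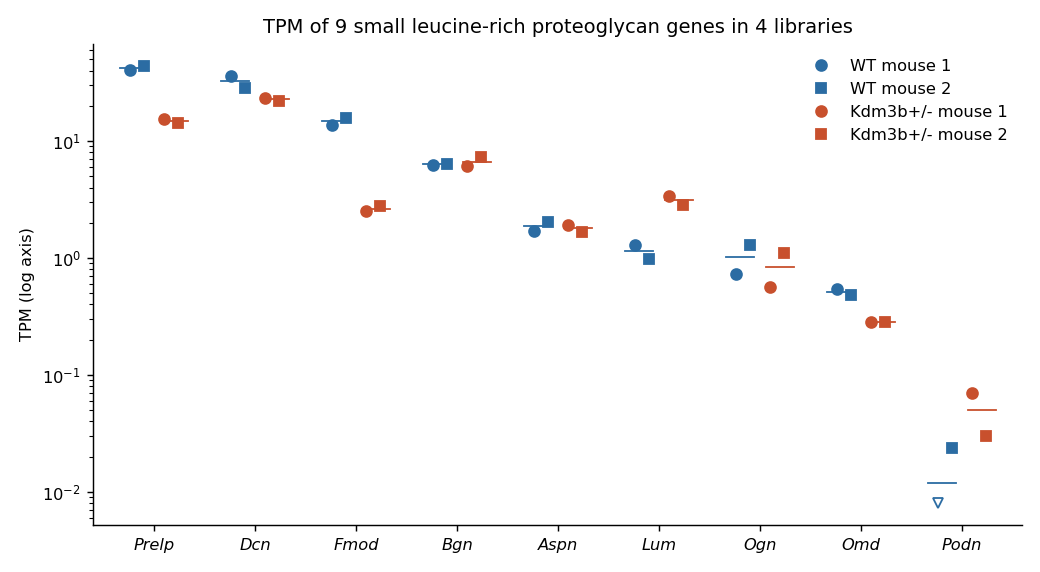
TPM of the 9 SLRP genes in each of the 4 libraries, on a log axis, with 1 point per mouse and the genotypes in separate colours; the open triangle marks *Podn* listed at 0 in WT mouse 1. The Kdm3b+/- mice lie below the WT mice for *Fmod* (2.53 and 2.76 against 13.7 and 15.7 TPM) and *Prelp* (15.3 and 14.2 against 40.4 and 44.0 TPM) and above them for *Lum*.

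Of the 9 genes, 6 passed the filter on low values, and 2 of these, *Fmod* and *Prelp*, were DEX, both lower in Kdm3b+/- mice. The groups did not overlap for 4 of the 6, with *Fmod*, *Prelp* and *Dcn* lower and *Lum* higher. Of all tested genes 0.461% were DEX, and the groups did not overlap for 51.3% (32.0% lower, 19.2% higher). Nothing is read from these counts, since the genes were chosen with their values known. The median log2 fold change of the 6 was -0.26, and they ranged from -2.10 for *Fmod* to 0.95 for *Lum*. The members thus differed in direction, and genes of the same class lay at both ends of the range, since *Fmod*, *Prelp* and *Lum* all belong to the second class.

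**Figure D2:**
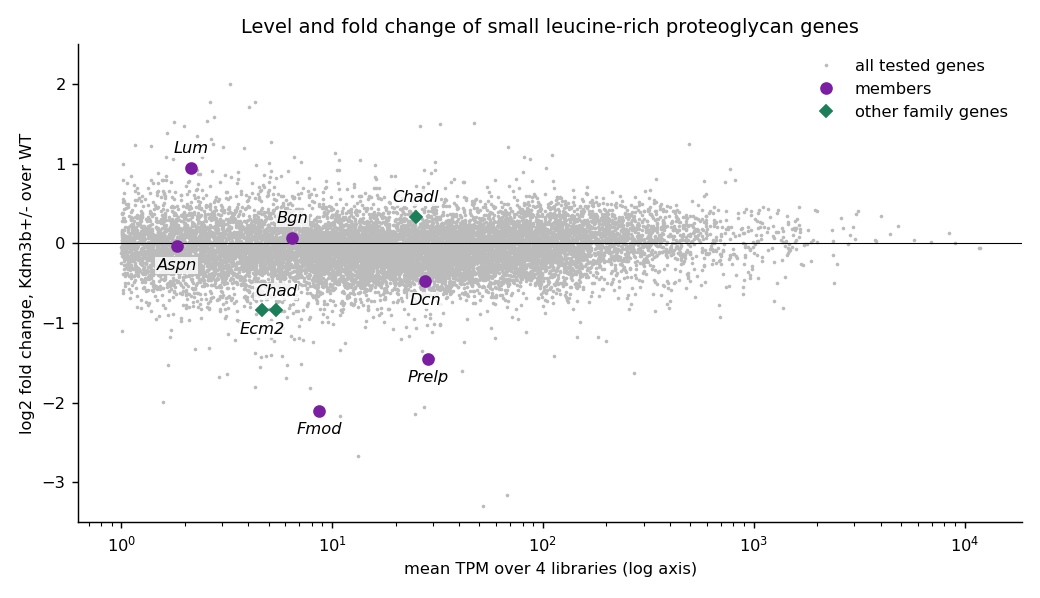
Log2 fold change (Kdm3b+/- over WT, on the log2(TPM + 1) scale) of tested genes against their mean TPM on a log axis, with the tested SLRP genes named (circles for the 9 described, diamonds for other family genes) and 5 other genes beyond the axis left out. *Fmod* (-2.10) and *Prelp* (-1.45), chosen by their lower levels, lie well below the bulk of genes at their level. *Bgn* (0.07) and *Aspn* (-0.04) lie near the bulk, while *Dcn* (-0.48), at rank 1032 among the decreases, lies lower.

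The order of the 9 genes by their level changed with genotype. In WT mice *Prelp* was highest, followed by *Dcn*, *Fmod*, *Bgn*, *Aspn*, *Lum*, *Ogn*, *Omd* and *Podn*. In Kdm3b+/- mice *Dcn* was highest, followed by *Prelp*, *Bgn*, *Lum*, *Fmod*, *Aspn*, *Ogn*, *Omd* and *Podn*. *Fmod* thus went from rank 3 to rank 5, and *Lum* from rank 6 to rank 4. Some neighbours in these orders did not differ beyond their spread. In WT mice *Lum* (0.984 to 1.29 TPM) and *Ogn* (0.735 to 1.28 TPM) overlapped, and in Kdm3b+/- mice *Lum* (2.86 to 3.40 TPM) lay only just above *Fmod* (2.53 to 2.76 TPM).

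The summed TPM of the 9 genes was 101 and 99.3 in WT mice and 53.6 and 52.4 in Kdm3b+/- mice. *Fmod* and *Prelp* together made up 53.7% and 60.0% of it in WT mice and 33.3% and 32.5% in Kdm3b+/- mice. The 7 relatives summed to 46.6 and 39.7 TPM in WT mice and to 35.7 and 35.4 TPM in Kdm3b+/- mice, so most of the difference in the sum lay in *Fmod* and *Prelp*. Set against the summed relatives, the log2 ratio of *Fmod* was -1.76 and -1.34 in WT mice and -3.82 and -3.68 in Kdm3b+/- mice. The log2 ratio of *Prelp* to the relatives was -0.21 and 0.15 in WT mice and -1.22 and -1.31 in Kdm3b+/- mice. Both genes were lower also when set against their relatives within the same library. Nothing is read from this, since the pair was chosen by its lower levels and the relatives to be set beside it. *Dcn* made up most of the sum of the relatives, such as 36.1 of 46.6 TPM in WT mouse 1. The pair also differed in their ratio to each other. *Prelp* was at 2.94 and 2.81 times the TPM of *Fmod* in WT mice and at 6.05 and 5.16 times in Kdm3b+/- mice. The TPM of *Dcn* over that of *Lum* was 27.9 and 29.0 in WT mice and 6.89 and 7.77 in Kdm3b+/- mice, while that of *Dcn* over *Bgn* was 5.76 and 4.50 in WT mice and 3.86 and 3.05 in Kdm3b+/- mice.

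**Figure D3:**
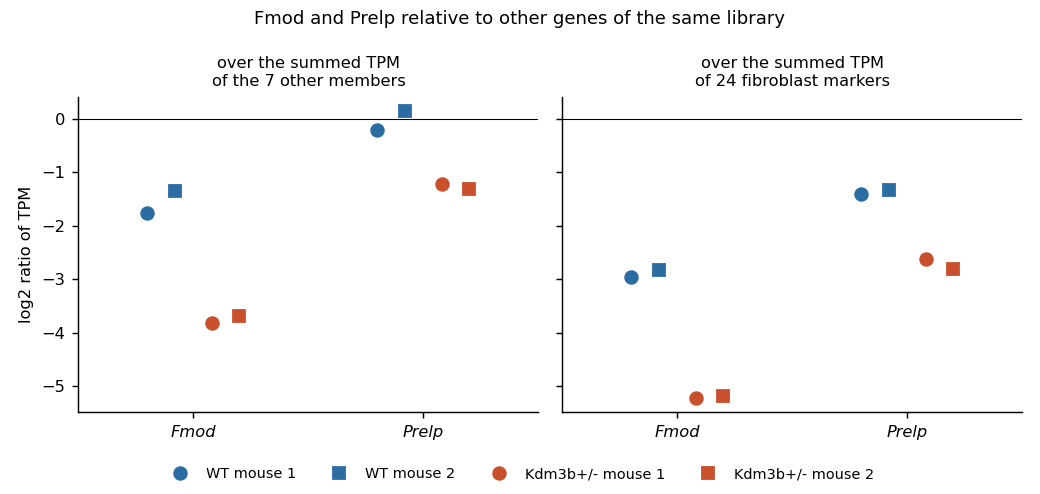
Log2 ratio of the TPM of *Fmod* and of *Prelp* to the summed TPM of the 7 relatives and to the summed TPM of 24 fibroblast and leptomeningeal marker genes, with 1 point per mouse. Against the relatives, *Fmod* lies at -1.76 and -1.34 in WT and at -3.82 and -3.68 in Kdm3b+/- mice, and *Prelp* at -0.21 and 0.15 against -1.22 and -1.31.

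Markers of fibroblasts and leptomeningeal cells were examined, since these cells are known to express SLRPs. Of 24 such genes 14 were tested and 0 were DEX with limma, with 3 at an unadjusted p under 0.05. These shares were 0.461% and 17.0% among all tested genes. Their means were lower in Kdm3b+/- mice for 11 and higher for 3, where 60.4% of all tested genes had a lower mean. Without overlap of the groups 8 were lower and 1 was higher, where 32.0% and 19.2% of all tested genes were. The median log2 fold change of these markers was -0.33 against -0.07 for all tested genes. Their summed TPM was 106 and 110 in WT mice and 94.0 and 99.8 in Kdm3b+/- mice. The tested values ranged from *Slc6a13*, a GABA and taurine transporter of the leptomeninges, at -0.76 (adjusted p = 0.188) to *Slc22a8*, an organic anion transporter, at 0.36 (adjusted p = 0.462). *Foxc2* and *Slc47a1* were listed at 0 in at least 1 library. The fibrillar collagen genes of this list differed in level and direction. *Col1a1* was at 0.617 and 0.831 TPM in WT mice and at 0.540 and 0.596 TPM in Kdm3b+/- mice. *Col1a2* was at 3.88 and 4.47 TPM in WT mice and at 1.87 and 3.28 TPM in Kdm3b+/- mice. *Col3a1* was higher in Kdm3b+/- mice, at 0.863 and 1.05 TPM against 0.448 and 0.563 TPM in WT mice. *Col1a1* and *Col3a1* were too low to be tested. Set against the summed markers, the log2 ratio of *Fmod* was -2.95 and -2.82 in WT mice and -5.22 and -5.18 in Kdm3b+/- mice. The log2 ratio of *Prelp* to these markers was -1.40 and -1.33 in WT mice and -2.62 and -2.81 in Kdm3b+/- mice. From WT to Kdm3b+/- mice the mean of these log2 ratios differed by -2.31 for *Fmod* and by -1.35 for *Prelp*. The part of these cells in the levels of the SLRP genes was not tested.

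The 9 other lists of cell type markers had median log2 fold changes of 0.10 for mural cells, -0.06 for endothelial cells, 0.19 for choroid plexus and ependymal cells, -0.02 for oligodendrocytes, -0.13 for astrocytes and Bergmann glia, -0.50 for Purkinje cells, 0.01 for granule cells, -0.24 for Golgi cells, interneurons and unipolar brush cells, and 0.10 for microglia and macrophages. Granule cell markers summed to between 5762 and 6846 TPM in the 4 libraries, with the genotypes overlapping. Purkinje cell markers summed to 2080 and 911 TPM in WT mice and to 1161 and 969 TPM in Kdm3b+/- mice, so in this sum WT mouse 1 stood apart from the other 3. Of the 14 tested Purkinje cell markers 13 had a lower and 1 a higher mean in Kdm3b+/- mice. Without overlap of the groups 7 were lower and 0 were higher, where 32.0% and 19.2% of all tested genes were. *Fmod* (13.7 and 15.7 TPM) and *Prelp* (40.4 and 44.0 TPM) were a little lower in WT mouse 1 than in WT mouse 2. Tested marker genes of these lists ranged from -1.08 for *Homer3*, a Purkinje cell gene (adjusted p = 0.125), to 1.10 for *Aqp4*. Of 119 tested marker genes 3 were DEX with limma, where 0.461% of all tested genes were. Among the 3 were *Mobp*, a myelin protein gene (log2 fold change -0.93, adjusted p = 0.0133), and *Aqp4*, the astrocyte water channel gene (log2 fold change 1.10, adjusted p = 0.0329). The part of these cell types in the levels of *Fmod* and *Prelp* was not tested.

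The remaining SLRP genes were described as a list of 9. Of these 3 were tested and 0 were DEX with limma, with 2 at an unadjusted p under 0.05. The shares among all tested genes were 0.461% and 17.0%. *Chad*, which encodes chondroadherin, a collagen-binding protein of cartilage, was at 6.34 and 8.22 TPM in WT mice and at 3.45 and 3.74 TPM in Kdm3b+/- mice, with a log2 fold change of -0.84 (SE 0.18, adjusted p = 0.108). *Ecm2*, a neighbour of *Aspn* that also lies inside *Cenpp*, was at 6.83 and 5.74 TPM in WT mice and at 2.72 and 3.40 TPM in Kdm3b+/- mice, with a log2 fold change of -0.84 (SE 0.19, adjusted p = 0.108). For both genes the groups did not overlap, but the difference did not pass the test. *Chad* and *Ecm2* are also on a gene list that the study drew from these libraries, which is no independent evidence of their direction. *Chadl*, a relative of *Chad* that is expressed in the cartilage matrix, was at 20.0 and 24.1 TPM in WT mice and at 28.5 and 27.2 TPM in Kdm3b+/- mice (log2 fold change 0.33, SE 0.16, adjusted p = 0.316). *Kera* and *Epyc*, which encode keratocan and epiphycan, were listed at 0 in all 4 libraries. *Optc*, which encodes opticin and lies 2.305 kb from *Prelp*, had a mean below 1 TPM and overlapping groups.

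The genes that build the sugar chains of SLRPs were examined next. Of 12 genes for keratan sulfate chains, which *Fmod* and *Lum* products carry, 9 were tested and 0 were DEX with limma, with 3 at an unadjusted p under 0.05. All 9 had a lower mean in Kdm3b+/- mice, as had 60.4% of all tested genes. Of all tested genes 0.461% were DEX and 17.0% had an unadjusted p under 0.05. Their median log2 fold change was -0.29, from -0.56 for the sulfotransferase gene *Chst5* (adjusted p = 0.174) to -0.0046 for the galactosyltransferase gene *B4galt4* (adjusted p = 0.991). Of 22 genes for chondroitin and dermatan sulfate chains, which the products of *Dcn* and *Bgn* carry, 18 were tested and 0 were DEX with limma, with 3 at an unadjusted p under 0.05. Of these 13 were lower and 5 higher, with a median of -0.10, from -0.59 for *Fam20b*, the xylose kinase gene (adjusted p = 0.206), to 0.56 for the chondroitin sulfotransferase gene *Chst11* (adjusted p = 0.187).

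The binding partners of SLRPs were examined in the same way, beside the 0.461% of all tested genes that were DEX and the 17.0% with an unadjusted p under 0.05. Of 27 genes for fibrillar collagens and their modifying and cross-linking enzymes 14 were tested and 0 were DEX with limma, with 3 at an unadjusted p under 0.05. Of these 6 were lower and 8 higher, with a median of 0.09, from -0.56 for *Col1a2* (adjusted p = 0.261) to 0.57 for *Col27a1* (adjusted p = 0.210). Of 26 genes for growth factors, receptors, complement proteins and proteases that bind or cut SLRPs, 20 were tested and 0 were DEX with limma, with 4 at an unadjusted p under 0.05. Of these 12 were lower and 8 higher, with a median of -0.06, from -0.77 for the complement gene *C4b* (adjusted p = 0.154) to 0.79 for *Bmp4*, a ligand that biglycan binds (adjusted p = 0.128).

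**Figure D4:**
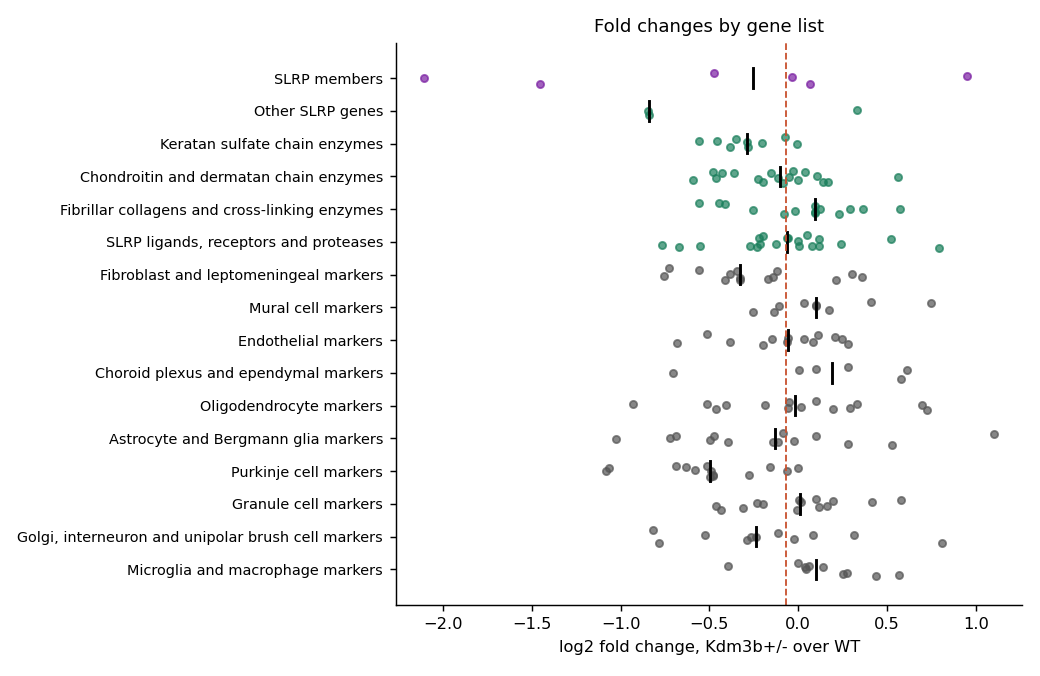
Log2 fold change (Kdm3b+/- over WT, on the log2(TPM + 1) scale) of each tested gene of the SLRP genes (purple), the related lists (green) and the cell type marker lists (grey), with a black bar at the median of each list and a dashed line at the median of all tested genes, -0.07. *Fmod* (-2.10) and *Prelp* (-1.45) lie below every gene of the collagen, sugar chain and ligand lists, whose lowest values are -0.56, -0.59 and -0.77. Nothing is read from this, since *Fmod* and *Prelp* were chosen by their lower levels.

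Genes beside *Fmod* and *Prelp* were examined for differences in the same stretch of the chromosome. Within 500 kb on either side of the pair 20 genes were listed, 12 were tested and 0 were DEX with limma, with 2 at an unadjusted p under 0.05. Of these 12 genes 9 had a lower and 3 a higher mean, with a median log2 fold change of -0.03. Among all tested genes 60.4% had a lower mean, 0.461% were DEX and 17.0% had an unadjusted p under 0.05. The nearest tested gene beyond *Fmod* was *Btg2*, an anti-proliferative gene, which was at 42.3 and 34.6 TPM in WT mice and at 38.5 and 36.1 TPM in Kdm3b+/- mice (log2 fold change -0.03, adjusted p = 0.928). It lies 26.6 kb from *Fmod*. The nearest tested gene beyond *Prelp* was *Atp2b4*, a plasma membrane calcium pump gene, at 156.6 kb (log2 fold change -0.04, adjusted p = 0.940). Neither of these neighbours had groups that were apart. *Adora1*, which encodes the adenosine A1 receptor, had the lowest value of the stretch, -1.22 (SE 0.33, adjusted p = 0.158). It was at 247 and 294 TPM in WT mice and at 72.9 and 181 TPM in Kdm3b+/- mice, so the Kdm3b+/- mice differed from each other. Without Kdm3b+/- mouse 2, *Adora1* was a DEX gene, and its group then held a single mouse.

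**Figure D5:**
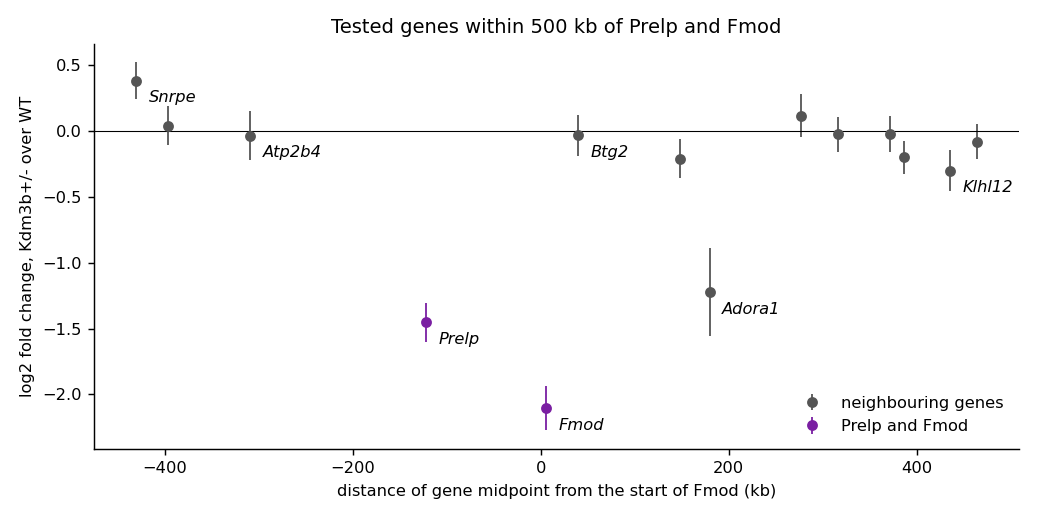
Log2 fold change (Kdm3b+/- over WT, on the log2(TPM + 1) scale) of tested genes against the distance in kb of their midpoints from the start of *Fmod*, with error bars that are the standard error from limma. *Fmod* and *Prelp* lie at -2.10 and -1.45, while *Btg2* and *Atp2b4* lie at -0.03 and -0.04.

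The genes whose pattern over the 4 libraries was most like that of *Fmod* were found by the root-mean-square difference of log2(TPM + 1) from the mean of each gene, among 13651 other tested genes. With so few libraries, this measure mainly ranks genes by how close their difference between the genotypes was to that of the gene they were compared with. The nearest were *S100a8* (0.233), *Phc3* (0.279), *S100a9* (0.299), *Fbln5* (0.326) and *Prelp* itself (0.334). *S100a8* and *S100a9* encode calcium-binding proteins of neutrophils, *Phc3* a Polycomb protein, and *Fbln5* a matrix protein of elastic fibres. *Fbln5*, for example, was at 23.5 and 13.7 TPM in WT mice and at 2.96 and 3.48 TPM in Kdm3b+/- mice. The nearest to *Prelp* were *Gbp10* (0.0733), a guanylate-binding protein gene, *Ccdc3* (0.0919), which encodes a secreted protein, *Ncald* (0.108), a neuronal calcium sensor gene, *S100a8* (0.116) and *Xdh* (0.120), the xanthine dehydrogenase gene. *Ccdc3*, which had a level like that of *Prelp*, was at 44.9 and 43.8 TPM in WT mice and at 17.6 and 14.1 TPM in Kdm3b+/- mice. *Fmod* was at rank 76 from *Prelp*, whereas *Prelp* was at rank 5 from *Fmod*, so many genes lay nearer to *Prelp* than its neighbour did.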

How the data were processed

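RNA sequencing of GCE tissue was examined in 2 WT and 2 Kdm3b+/- mice, with 1 library per mouse, grouped by the genotype in the labels. The authors trimmed and aligned the reads with STAR, and StringTie gave the gene abundances they deposited. Genome build, annotation, tool versions and strandedness are not given in the sources used here, and 99.6% of the identifiers lay on their GRCm38 chromosome in RefSeq, which gave symbols for 24462. The deposited coverage is the mean read depth over exons. The deposited FPKM is scaled to gene length and mapped fragments, and in the deposited TPM the authors also set the total of each library to a fixed value. Dividing coverage by FPKM gave the aligned bases. Counts were not recovered, so depth per gene is known only as coverage, and the count test that the study used was not repeated.

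TPM was summed over entries of the same identifier, which 220 identifiers had. Where the mean TPM reached 1, genes were tested on log2(TPM + 1) with limma 3.58.1 (lmFit, then eBayes with a trend) under R 4.3.3, with genotype as the only term and Benjamini-Hochberg adjustment over all tested genes. The p-values measure the spread between these mice, which is shared across genes. Python 3.11.15 with NumPy 2.4.6, pandas 2.3.3 and Matplotlib 3.10.9 served for tables and plots, and statmod 1.5.0 for robust fits. The fit was tested on simulated data. Promoter entries came from RefSeq (GRCm38.p6), and exons from GENCODE.

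The members, the lists and the tests were chosen with earlier results of these data known. The genes named are the members, the tested SLRP genes besides them, *Kdm3b*, the DEX genes and the highest and lowest tested genes of each related list and of the fibroblast list, the nearest tested gene on each side of the pair, and the 5 genes nearest in pattern. Of the other marker lists, DEX genes and the lowest and highest gene over all of them are named, and 1 DEX gene is counted but not reported here by itself. *Col1a1*, *Col3a1*, *Foxc2*, *Slc47a1*, *Optc*, *Kera*, *Epyc*, *Cenpp* and *Adora1* were added to these once their values had been seen. The alternatives were a pseudocount of 0.1, no filter, a mean TPM of at least 5, FPKM in place of TPM, median-ratio scaling, robust eBayes, the highest entry per gene, the replicate number as a block, and leaving out every library once.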

Additional observations from a re-analysis of the deposited data

How the results depend on the processing

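*Fmod* and *Prelp* were not DEX in the fit without the filter on low TPM. In that fit 2 genes were DEX in all (1 higher, 1 lower), against 63 in the report. Nothing is read from the calls of the pair under the alternatives, since *Fmod* and *Prelp* were chosen by their lower levels in these same libraries. FPKM in place of TPM gave 38 DEX genes (12 higher, 26 lower). The replicate numbers are shared by different animals of the 2 genotypes, and the labels do not say whether same-numbered mice were processed together. The deviations of same-numbered mice correlated at 0.121, which cannot settle this with 2 pairs. With the replicate number as a block, 600 genes were DEX (173 higher, 427 lower), among them 2 of the other SLRP genes, 1 of the chondroitin and dermatan chain genes, 1 gene beside the pair and 20 marker genes (5 higher, 15 lower), where the report has 0, 0, 0 and 3. Marker genes without the filter were DEX in 0 cases. Leaving out each library in turn gave between 21 (without WT mouse 1) and 188 (without Kdm3b+/- mouse 2) DEX genes, with 28 without WT mouse 2 and 121 without Kdm3b+/- mouse 1, between 0 and 6 marker genes, and between 0 and 1 genes beside the pair, the 1 without Kdm3b+/- mouse 2. The lone mouse of a group was then assumed to vary like the others. The log2 fold change of *Fmod* was -2.43 with a pseudocount of 0.1 and -1.75 with FPKM, that of *Prelp* was -1.32 with FPKM, and that of *Lum* was 1.39 and 0.70 under the same alternatives. These causes were not tested. The other 80 member fold changes moved by less than 1 SD between replicates. Many of the 80 could not move, since the filters, robust eBayes and the replicate block leave a fold change as it is. The highest entry per gene left those of the members unchanged too. The sign changed for 2 genes whose values were near 0: *Bgn* became -0.05 without Kdm3b+/- mouse 2, and *Aspn*, at -0.04, became 0.0051 with FPKM, 0.01 with median-ratio scaling, 0.04 without WT mouse 2 and 0.03 without Kdm3b+/- mouse 2. The other 7 kept their sign, but *Ogn*, *Omd* and *Podn* had a value only in the fit without the filter, where it could not change. With 2 mice a group, genes with low coverage, such as *Omd*, *Podn* and, in WT mice, *Lum*, are the least certain.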
